A study of Mus musculus with 6 samples.

Results

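The inner root sheath is the sleeve of cells that surrounds the growing hair shaft, moulds it and breaks down before the hair leaves the skin. Its keratins and the granule protein trichohyalin were followed here in mouse skin through 9 genes chosen by name, Krt25, Krt26, Krt27, Krt28, Krt71, Krt72, Krt73, Krt74 and Tchh, out of 33308 genes in the deposited table, and all 9 were found. RNA-seq was carried out on 6 skin samples, 3 from mice given osimertinib for 42 days and 3 from untreated control mice. Osimertinib inhibits the epidermal growth factor receptor and is used against lung cancer, and the study was set up around the skin problems it causes. The sources used here give no strain, sex, age, dose, body site or hair cycle stage, and no day of sampling for the controls. They do not tell whether each sample is another mouse, so a p-value here weighs only sample-to-sample spread, part of which may be technical.

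Keratin filaments are built from pairs of 1 type I and 1 type II keratin. In the inner root sheath the type I partners are Krt25 to Krt28 and the type II partners are Krt71 to Krt74, and in human follicles KRT25, KRT27, KRT28 and KRT71 are made throughout the sheath, KRT26, KRT72 and KRT73 in its cuticle and KRT74 in its Huxley layer. Trichohyalin fills the sheath cells as granules and is then modified by peptidylarginine deiminases and cross-linked to the keratin filaments by transglutaminases. Mutations of mouse Krt25 and Krt71 give curly or wavy coats. Sheath cells are produced while a follicle grows and are lost as it regresses and rests. In whole skin, fewer sheath cells and less RNA per sheath cell cannot be told apart.

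The members lie in 3 places on GRCm38, with coordinates as in the deposited table. The type I genes stand side by side on the minus strand of chromosome 11, Krt25 at 99315516 to 99322951, Krt26 at 99328550 to 99337966, Krt27 at 99345565 to 99351104 and Krt28 at 99364872 to 99374903. The type II genes stand side by side on the minus strand of chromosome 15, Krt71 at 101733949 to 101743109, Krt74 at 101754259 to 101763504, Krt72 at 101776172 to 101786460 and Krt73 at 101793308 to 101802346. Tchh is on the plus strand of chromosome 3, 93442330 to 93449077. GENCODE release 21 annotates mouse Krt74 as a transcribed unitary pseudogene and the other 8 as protein-coding, so the Krt74 values below are levels of an RNA with no annotated protein. The long non-coding gene Gm37245 overlaps Tchh on the opposite strand and had 1 count in osimertinib 1 and 0 counts in the other libraries. The longest run of bases shared by the transcripts of any pair of members was 105, between Krt25 and Krt27, and 7 of 36 pairs shared a run longer than 50, so some reads of close pairs may have been assigned in an unknown way.

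The bases just upstream of the transcription start are shown for 4 keratin genes of the 2 clusters because these windows share 2 motifs. RefSeq promoter sequences (GRCm38.p6) were at hand for 8 members, all but Krt74. Each run below is 250 bases, read 5′ to 3′ on the gene's strand and ending at the base before the RefSeq start. Capitals mark the core promoter motif TATAAA, and the motif AGATAA that is bound by the factor family of the sheath regulator Gata3.
Krt25 (chr11:99322952-99323201, minus strand): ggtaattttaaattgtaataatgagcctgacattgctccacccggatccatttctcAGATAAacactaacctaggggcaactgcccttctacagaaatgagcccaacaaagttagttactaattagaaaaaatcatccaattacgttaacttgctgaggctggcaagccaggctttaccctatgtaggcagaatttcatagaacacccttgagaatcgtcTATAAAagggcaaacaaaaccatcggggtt
Krt27 (chr11:99351119-99351368, minus strand): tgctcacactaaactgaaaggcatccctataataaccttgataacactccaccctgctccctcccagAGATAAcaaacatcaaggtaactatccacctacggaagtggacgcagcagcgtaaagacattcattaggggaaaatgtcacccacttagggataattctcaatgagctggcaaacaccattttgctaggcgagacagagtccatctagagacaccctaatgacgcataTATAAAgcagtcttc
Krt71 (chr15:101743098-101743347, minus strand): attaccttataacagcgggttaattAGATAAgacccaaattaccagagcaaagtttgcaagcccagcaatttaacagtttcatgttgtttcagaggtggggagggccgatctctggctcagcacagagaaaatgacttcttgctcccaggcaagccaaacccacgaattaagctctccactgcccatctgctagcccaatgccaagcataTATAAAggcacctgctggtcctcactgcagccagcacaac
Krt73 (chr15:101802361-101802610, minus strand): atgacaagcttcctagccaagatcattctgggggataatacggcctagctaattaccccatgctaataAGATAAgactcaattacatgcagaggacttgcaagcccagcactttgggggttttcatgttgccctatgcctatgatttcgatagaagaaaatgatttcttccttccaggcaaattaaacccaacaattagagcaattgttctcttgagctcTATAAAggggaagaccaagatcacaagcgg
AGATAA, read on both strands, was present in 5 of 8 member windows (these 4 and Tchh), against 9.99% of the 32851 windows of the same length in the table. TATAAA or its complement was present in 7 of 8, all but Tchh, against 12.4% of windows, and it began between 40 and 21 bases before the start on the gene's own strand in 5 of 8 (Krt25, Krt26, Krt28, Krt71 and Krt73), against 1.99%. In Krt27 it began 15 bases before the start given by RefSeq, and in Krt72 the match lay on the other strand, 203 bases before it. The Krt71 and Krt73 windows also share the run TTGCAAGCCCAGCA, 196 and 154 bases before their starts. TGAGTCA, an AP-1 site, was in 0 of 8 member windows against 4.46% of all windows, and CTTTGA, a LEF and TCF site, was in 2 of 8 (Krt28 and Tchh) against 13.8%. The motifs were chosen with the sequences in view, no motif overlaps another in the 4 windows shown, and a match describes letters, not binding.

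All 9 sheath genes had higher levels in every osimertinib library than in every control library, by a median log2 fold change of 4.40, against −0.05 over the 13498 genes tested. The level in treated skin was led by Krt28, Krt71 and Krt25, and osimertinib 2 was the highest library for every member. Control 2 was the highest control for every member, and controls 1 and 3 held few or no keratin reads. Groups that do not overlap in CPM were found in this direction for 11.3% of genes tested and in the opposite one for 9.38%. In the quasi-likelihood test of edgeR 0 of 9 members passed the adjusted threshold of 0.05, with adjusted p between 0.284 for Tchh and 0.499 for Krt25, and 0 of all genes tested passed (0.0% in either direction). At an unadjusted p under 0.05 there were 5 of 9 members, against 7.22% of all genes in that direction and 14.0% in either. DESeq2 called 2 members, Tchh and Krt26, against 3.41% of genes called as higher and 2.95% as lower. By limma on log2(FPKM + 1) 0 members were called, against 0.0889% of genes as higher and 0.037% as lower. All 9 members had a log2 fold change above 4, against 1.07% of genes tested. The members were chosen with earlier results of these data known. Krt26, Krt72 and Krt74 passed the filter on mean FPKM through treated skin alone. The shares in this paragraph therefore describe the members and are no test.

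**Figure D1:**
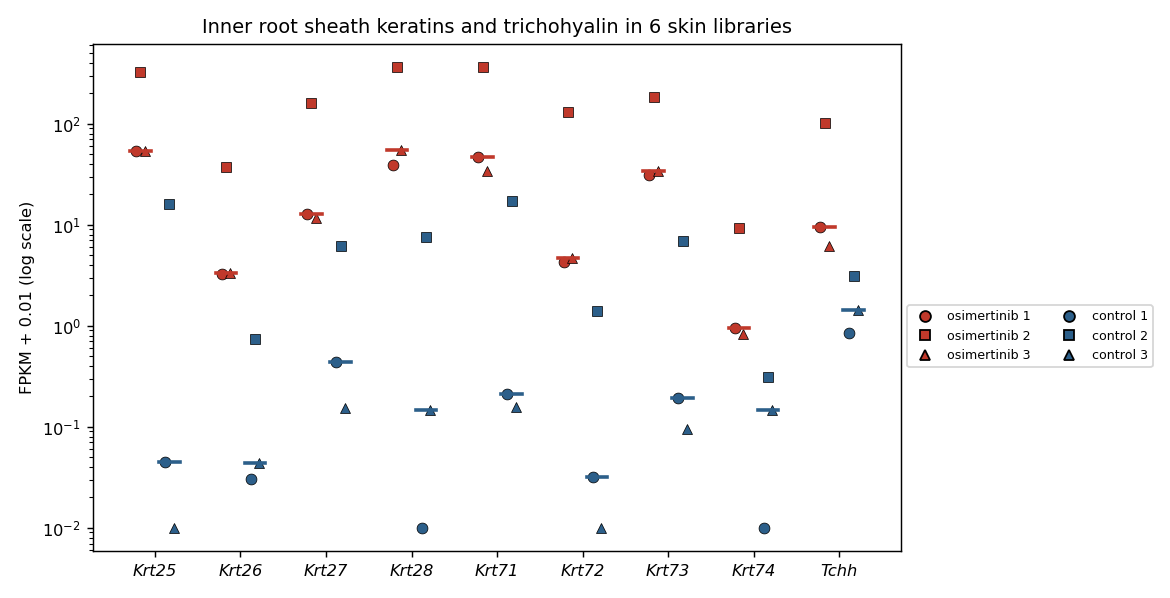
Level of each gene in each library, as FPKM plus 0.01 on a log axis, osimertinib libraries on the left of each pair and controls on the right, with a bar at the group median. In all 9 genes the 3 treated libraries lie above the 3 controls, and osimertinib 2 and control 2 stand at the top of their groups.

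Among the type I keratins, Krt25, one of the main filament keratins of the sheath, had 53.2, 329 and 53.6 FPKM in osimertinib samples 1, 2 and 3, against 0.0348, 16.0 and 0 FPKM in controls 1, 2 and 3. FPKM is a level per length of transcript and depth of library. The 3 treated samples lay at least 3.33 times above control 2, while controls 1 and 3 had 5 and 0 counts. A count of 0 in control 3 allows up to 3 counts, or 0.0525 CPM without the scaling factors that other CPM values carry. The mean was 145 ± 159 FPKM in treated skin and 5.33 ± 9.21 FPKM in controls (SD, n = 3 each), and the log2 fold change was 4.36 ± 2.55 (SE), the widest error of the 9. Krt28 had 39.1, 365 and 54.7 FPKM in treated skin, against 0, 7.58 and 0.137 FPKM in controls. It reached the highest mean of all members in treated skin, 153 ± 184 FPKM against 2.57 ± 4.34 FPKM in controls (SD, n = 3 each), and its lowest treated value was 5.16 times its highest control value, the widest gap among the members. Its log2 fold change was 5.49 ± 2.37 (SE).

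Krt27 had 12.7, 159 and 11.6 FPKM in treated skin, against 0.424, 6.19 and 0.142 FPKM in controls. Control 2 came nearer to the treated samples here than for any other member, at 1.87 times below osimertinib 3, and the log2 fold change was 4.38 ± 1.86 (SE). Krt26, a cuticle keratin in human sheath, was the least abundant of the type I genes, with 3.28, 37.3 and 3.29 FPKM in treated skin against 0.0206, 0.724 and 0.0340 FPKM in controls. Its log2 fold change was 5.44 ± 1.84 (SE), with an adjusted p of 0.305 in edgeR and of 0.0360 in DESeq2. The order Krt26 below Krt27 below both Krt25 and Krt28 held in each of the 3 treated libraries, while Krt25 and Krt28 changed places between them.

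Among the type II keratins, Krt71, which partners the type I keratins throughout the human sheath, had 46.5, 362 and 33.9 FPKM in treated skin, against 0.200, 17.1 and 0.146 FPKM in controls. All 3 treated samples were above control 2, by 1.98 times or more, and far above the other controls. Its mean was 147 ± 186 FPKM in treated skin and 5.82 ± 9.78 FPKM in controls (SD, n = 3 each), with a log2 fold change of 4.26 ± 2.15 (SE). Krt73 had 31.0, 183 and 34.1 FPKM in treated skin, against 0.184, 6.84 and 0.0845 FPKM in controls. Osimertinib 2 stood less far above the other treated samples for Krt73 than for any other member, 5.61 times their mean, and the log2 fold change was 4.73 ± 1.91 (SE).

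Krt72, another keratin of the human sheath cuticle, had 4.25, 131 and 4.66 FPKM in treated skin, against 0.0218, 1.40 and 0 FPKM in controls. It had both the largest log2 fold change, 6.22 ± 2.46 (SE), and the largest excess of osimertinib 2, at 29.5 times the mean of the other treated samples, and its log2 fold change was 2.91 without that library. DESeq2 gave no adjusted p for Krt72 or Krt74. The pseudogene Krt74 was also highest in osimertinib 2 and control 2, at a lower level, with 0.936, 9.31 and 0.816 FPKM in treated skin, against 0, 0.300 and 0.135 FPKM in controls. Its counts were 107, 1074 and 96 in treated skin and 0, 33 and 15 in controls, and its log2 fold change was 4.40 ± 1.60 (SE).

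Tchh, which encodes trichohyalin, had 9.40, 103 and 6.20 FPKM in treated skin, against 0.836, 3.11 and 1.42 FPKM in controls. Its groups did not overlap either, but it differed from the keratins in controls 1 and 3, where it had 309 and 553 counts and was the most abundant of the 9 genes. The 8 keratins together had 109 and 89 counts in those libraries. The summed keratin level was 20.3, 15.4 and 31.7 times that of Tchh in treated skin, and 1.06, 18.1 and 0.479 times in controls 1, 2 and 3, so control 2 had the ratio of treated skin and the other controls did not. Tchh had the smallest log2 fold change and the smallest error of the 9, 4.21 ± 1.30 (SE), with an adjusted p of 0.284 in edgeR and of 0.00248 in DESeq2.

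The size of every fold change depended on a single library in each group. Without control 2 the median over the members was 9.24, with Krt25 at 12.83 and Krt28 at 11.12, where the remaining controls held between 0 and 42 counts of each keratin. Without osimertinib 2 the median was 2.91, with a range from 1.97 for Tchh to 3.87 for Krt28. Leaving out any of the other 4 libraries gave medians between 3.86 and 4.88. The sign was positive for every member each time.

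**Figure D2:**
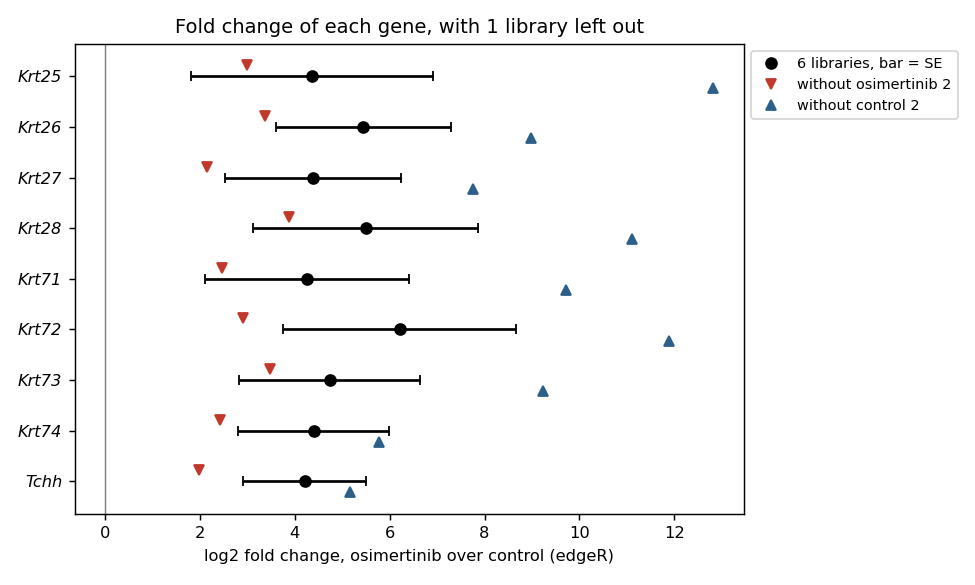
Log2 fold change of each gene, osimertinib over control, from edgeR on 6 libraries with its SE, and the same estimate without osimertinib 2 or without control 2. Every value is above 0, and leaving out control 2 raises the estimate more for the keratins than for Tchh, whose 3 values run from 1.97 to 5.16.

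Within treated skin the order of abundance was similar in the 3 libraries. By mean FPKM the order was Krt28, Krt71, Krt25, Krt73, Krt27, Krt72, Tchh, Krt26 and Krt74. The first 3 neighbours did not differ beyond their spread, since their order changed between libraries. Krt25 was above Krt73 by 1.57 to 1.80 times, and Krt73 was above Krt27 by 1.15 to 2.94 times, in all 3 libraries. Krt72 and Tchh changed places, Krt72 being the higher in osimertinib 2. Krt26 was 3.51 to 4.03 times the level of Krt74.

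The summed type I and type II levels stayed close to each other while both varied widely between libraries. The type I sum was 108, 890 and 123 FPKM in treated skin, against 0.480, 30.5 and 0.313 FPKM in controls. The type II sum was 82.7, 685 and 73.5 FPKM in treated skin, against 0.406, 25.7 and 0.366 FPKM in controls. Their ratio was 1.31, 1.30 and 1.68 in treated skin (1.43 ± 0.22, SD, n = 3) and 1.18, 1.19 and 0.855 in controls (1.07 ± 0.19, SD, n = 3). The 2 groups of ratios did not overlap, but with 3 against 3 samples no exact two-sided test of such a ratio can reach 0.05. The ratios of controls 1 and 3 rest on 52 against 57 and on 39 against 50 counts. Without Krt28 and Krt71, the genes of each type with the highest mean in treated skin, the ratios were 1.91, 1.62 and 1.73 in treated skin and 2.33, 2.68 and 0.801 in controls, and the groups then overlapped.

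**Figure D3:**
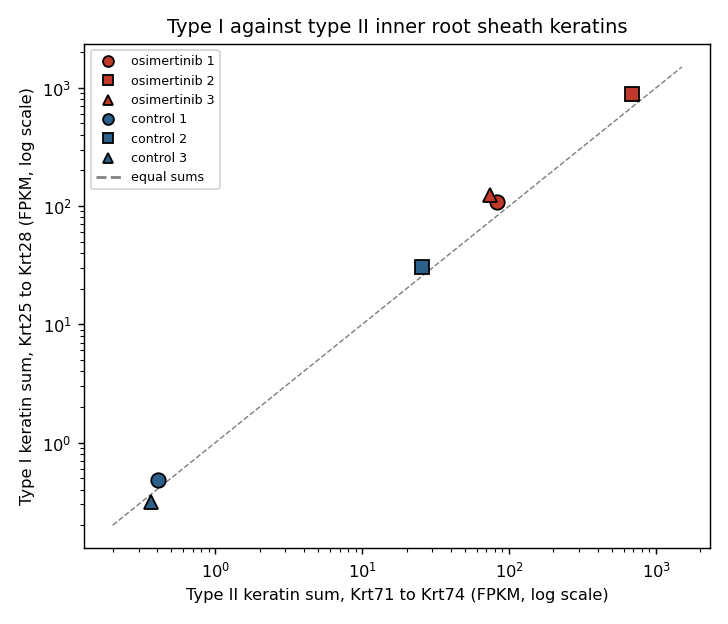
Summed level of the type I keratins Krt25 to Krt28 against that of the type II keratins Krt71 to Krt74 in each library, in FPKM on log axes, with a dashed line where the sums are equal. The 6 libraries lie close to the line from 0.313 to 890 FPKM, and the 3 treated libraries and controls 1 and 2 lie above it.

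The make-up of the keratin pool was alike in the 4 libraries with a deep count. Krt25 made up 27.8%, 20.9% and 27.3% of the summed FPKM of the 8 keratins in osimertinib samples 1, 2 and 3, against 28.4% in control 2. Krt71 made up 24.4%, 23.0% and 17.2% in treated skin and 30.5% in control 2. Krt28 stood apart, at 20.5%, 23.2% and 27.8% in treated skin and 13.5% in control 2. Krt72 made up 8.34% in osimertinib 2, against 2.23% and 2.37% in the other treated libraries and 2.50% in control 2. Krt27 made up 6.67%, 10.1% and 5.88% in treated skin and 11.02% in control 2. In controls 1 and 3, where the shares rest on 109 and 89 counts, Krt27 took 47.9% and 20.9%.

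**Figure D4:**
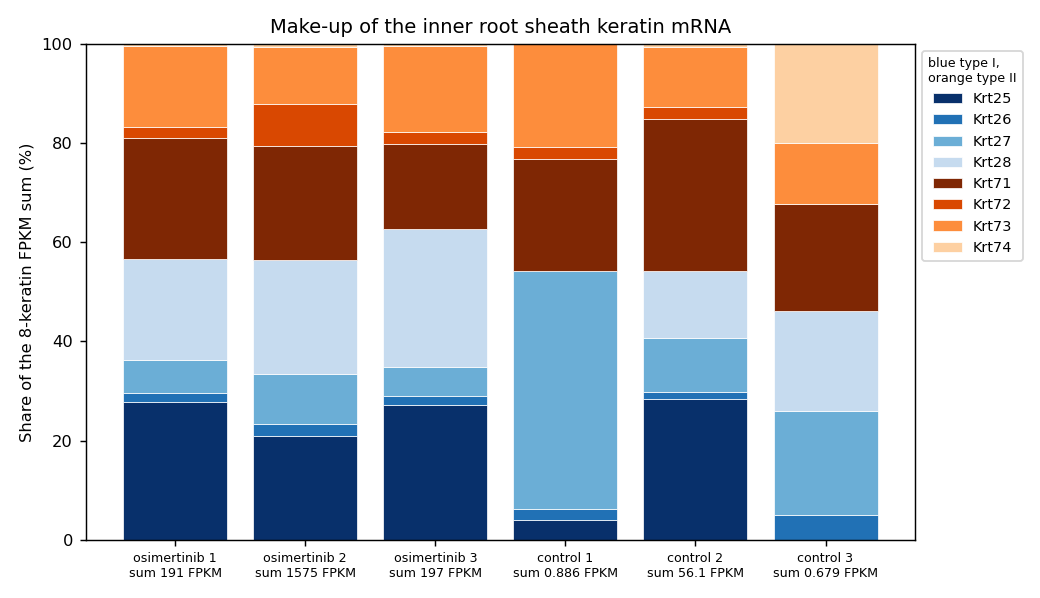
Share of each keratin in the summed FPKM of the 8 inner root sheath keratins, in percent, for each library, type I genes in blue and type II genes in orange. The 3 treated libraries and control 2 have similar bars, while controls 1 and 3, at sums of 0.886 and 0.679 FPKM, differ from them and from each other.

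The regulators of the sheath and matrix were mostly higher in treated skin, and Gata3 was not. Of 8 genes listed, 7 were higher, and the median log2 fold change was 2.63. None passed in edgeR, where adjusted p ran from 0.152 to 0.818. There, 6 had an unadjusted p under 0.05, all higher, against 7.22% of all genes tested in that direction. DESeq2 called 6 as higher, against 3.41% of all genes tested. Lef1 and Trps1 passed the filter on mean FPKM through treated skin alone, so these counts describe the genes and are no test. Gata3, a transcription factor needed for the sheath lineage, had 15.7, 29.4 and 16.6 FPKM in treated skin, against 23.4, 10.9 and 40.8 FPKM in controls. Its groups overlapped and its log2 fold change was −0.30 ± 0.41 (SE, adjusted p = 0.818 in edgeR). Controls 1 and 3, in which the sheath keratins were near 0, had more Gata3 than control 2. Epidermal cells also make Gata3. The summed sheath keratins were 12.1, 53.6 and 11.8 times the level of Gata3 in treated skin, against 0.0379, 5.15 and 0.0166 times in controls.

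Dlx3, a homeobox factor of the matrix and sheath, had 26.9, 104 and 36.1 FPKM in treated skin, against 3.24, 5.03 and 3.48 FPKM in controls, a log2 fold change of 3.66 ± 0.61 (SE). Foxn1, whose loss gives the nude mouse, had 4.33, 18.2 and 3.32 FPKM in treated skin, against 0.796, 1.09 and 2.16 FPKM in controls. Lef1, a factor of the Wnt pathway, had 3.90, 9.39 and 3.14 FPKM in treated skin, against 0.270, 0.697 and 0.286 FPKM in controls. In these 3 genes the treated and control groups did not overlap. Msx2, Hoxc13, Trps1 and Cux1 had log2 fold changes of 3.84, 2.68, 1.10 and 0.90, and in each the groups did not overlap. Over all genes tested, 11.3% had groups that did not overlap in that direction. Cux1 was called by neither tool, and its log2 fold change was 0.28 without osimertinib 2.

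Of 6 enzymes listed with the sheath, 4 had higher and 2 had lower estimates in treated skin. Padi3, the deiminase that acts on trichohyalin, had 11.2, 49.0 and 6.83 FPKM in treated skin, against 0.0267, 1.86 and 0.0332 FPKM in controls, again highest in osimertinib 2 and control 2. Padi1 had 1.48, 9.83 and 1.12 FPKM in treated skin, against 0, 0.592 and 0.0555 FPKM in controls, and Padi4 had 1.15, 7.68 and 0.624 FPKM against 0.0551, 0.252 and 0.0592 FPKM. The transglutaminase Tgm3, which cross-links trichohyalin, had 11.3, 14.1 and 2.33 FPKM in treated skin, against 25.5, 4.62 and 23.6 FPKM in controls, and Tgm1 had 25.5, 18.8 and 7.23 FPKM against 24.9, 5.99 and 27.4 FPKM. Both transglutaminases are also made by the epidermis, and their groups overlapped. Dnase1l2, a nuclease of cornifying cells, had a log2 fold change of 1.09 ± 0.58 (SE) with overlapping groups. None of the 6 passed in edgeR. There, Padi3 and Padi4 had an unadjusted p under 0.05, against 7.22% of all genes tested in that direction. DESeq2 called Padi4, against 3.41% of all genes tested as higher. Padi1, Padi3 and Padi4 passed the filter on mean FPKM through treated skin alone, so these counts describe the genes and are no test.

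**Figure D5:**
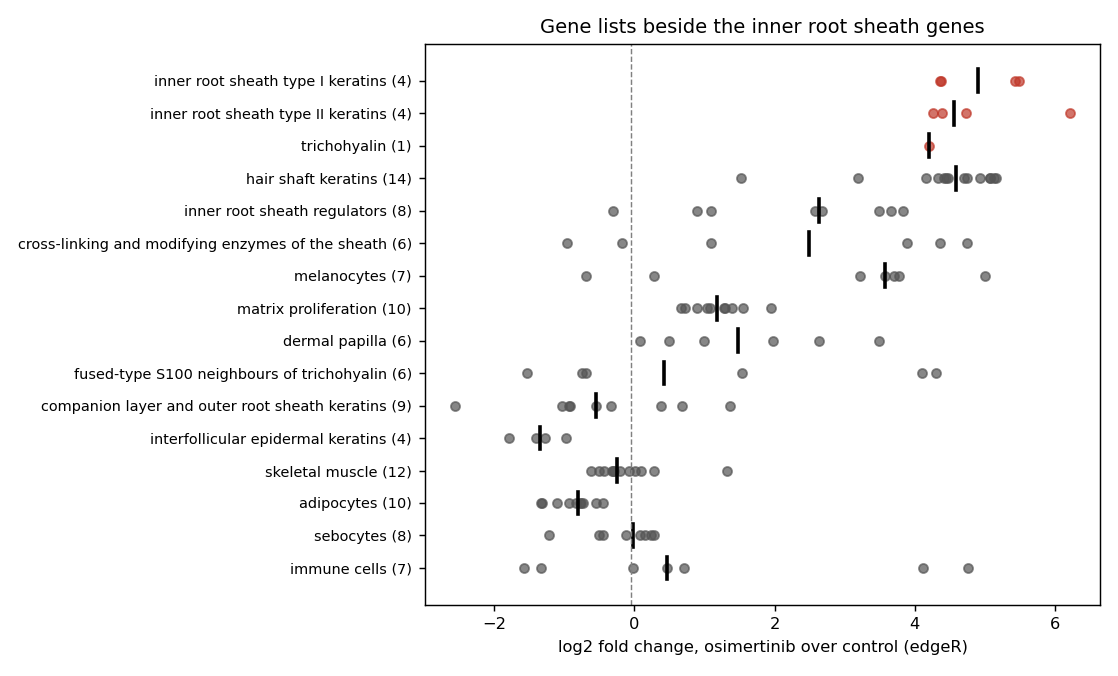
Log2 fold change, osimertinib over control, of each tested gene (points) and the median (bar) of the sheath genes and of the lists set beside them, with the number of genes tested in brackets and a dashed line at the median of all genes, −0.05. The sheath and hair shaft keratins lie furthest to the right, with medians of 4.91, 4.56 and 4.59 for type I sheath, type II sheath and shaft keratins.

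The hair shaft keratins, the other structural product of the growing follicle, showed a like difference. Of 14 tested, 14 were higher, and in 7 the groups did not overlap in CPM, against 11.3% of all genes tested in that direction. Some others did not overlap in FPKM alone, such as Krt33a, at 10.5 FPKM in osimertinib 3 and 8.98 FPKM in control 2. In edgeR 0 were called (4 at an unadjusted p under 0.05, against 7.22% of all genes tested in that direction). DESeq2 called 2, against 3.41% of all genes tested in that direction. Krt36, Krt39, Krt40, Krt82 and Krt86 passed the filter on mean FPKM through treated skin alone. Both DESeq2 calls, Krt36 and Krt39, are among them, so these counts describe the genes and are no test. The median log2 fold change was 4.59, and it was 2.46 without osimertinib 2 and 10.13 without control 2. The sheath keratin sum was 0.410, 0.626 and 0.860 times the shaft keratin sum in treated skin, and 0.0551, 0.629 and 0.0357 times in controls 1, 2 and 3. In controls 1 and 3 most of the shaft sum was Krt32, at 14.2 and 16.7 FPKM, against 21.1, 79.7 and 9.85 FPKM in treated skin and 5.89 FPKM in control 2. Krt32 was singled out after its values were seen. The list of 9 companion layer and outer root sheath keratins was mixed, with 3 higher and 6 lower. Its median was −0.55 (0.01 without control 3 and −0.84 without control 2). Krt5 and Krt14 of this list also served as markers of skin epidermis, so its values are not those of the follicle alone. Krt75, the companion layer keratin, likewise picked out afterwards, had 10.2, 66.0 and 9.80 FPKM in treated skin, against 56.5, 26.3 and 73.3 FPKM in controls. Krt17 was the member of that list with the smallest p and had a log2 fold change of 1.36 ± 0.32 (SE, adjusted p = 0.216 in edgeR and 5.12e-05 in DESeq2). Krt15, a keratin of the outer root sheath and bulge, had 825, 428 and 236 FPKM in treated skin, against 3178, 1126 and 4562 FPKM in controls, with no overlap and a log2 fold change of −2.56 ± 0.68 (SE, adjusted p = 0.255 in edgeR and 0.000524 in DESeq2).

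Genes next to the members on their chromosomes were chosen by position, with their values known, and among them Tchhl1 came nearest to the members in fold change. On chromosome 11 Krt24 flanks Krt25 on the lower side and had 5.26, 2.74 and 4.38 FPKM in treated skin, against 10.0, 10.1 and 14.5 FPKM in controls, a log2 fold change of −1.54 ± 0.31 (SE, adjusted p = 0.190 in edgeR and 0.000545 in DESeq2). On the other side stands Krt10, a keratin of the suprabasal epidermis, with 665, 322 and 69.5 FPKM in treated skin, against 1288, 345 and 1184 FPKM in controls. On chromosome 15 the basal keratin Krt5 flanks Krt71 and had a log2 fold change of −0.55 ± 0.59 (SE), while Krt2, beyond Krt73, stayed under 1 FPKM in all 6 libraries. Among 6 genes of the fused S100 family, to which Tchh belongs, 3 were higher and 3 lower, with a median of 0.43 (−0.08 without osimertinib 1 and 0.97 without control 2). The 3 higher ones, Tchhl1, Crnn and Rptn, passed the filter on mean FPKM through treated skin alone. Tchhl1, the next gene beyond Tchh, had 2.86, 16.2 and 0.815 FPKM in treated skin, against 0, 0.880 and 0 FPKM in controls, and Crnn had 1.08, 12.3 and 0.274 FPKM against 0.0318, 0.360 and 0.174 FPKM. In both genes osimertinib 3 lay below control 2, so the groups overlapped. Their log2 fold changes were 4.10 ± 2.14 for Tchhl1 and 4.31 ± 1.61 for Crnn (SE), which DESeq2 called (adjusted p = 0.0223), and they were 2.34 and 1.67 without osimertinib 2. Rptn, on the other side of Tchh, had a log2 fold change of 1.54 ± 0.62 (SE), and Flg, Flg2 and Hrnr, of the epidermal granular layer, had −0.74, −1.54 and −0.69.

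The genes whose levels over the libraries ran most like the sheath genes were sought as those with the smallest root mean square distance, in log2 CPM centred on each gene's mean, from the mean profile of the 9 members over the 6 libraries. The 8 nearest were Krtap26-1 at 0.300, Krtap19-3, Krtap9-3, Krtap6-1, Krtap19-5, Krtap24-1, Padi3 and Krtap3-1 at 0.455, of which 7 encode keratin-associated proteins of the hair shaft. The members themselves lay between 0.331 for Krt26 and 1.87 for Tchh. Padi3, at 0.429, was the gene of this group that was also in a list of sheath partners. With a profile of 5 keratins (Krt25, Krt27, Krt28, Krt71 and Krt73), 1 of the 8, Padi3, was still among the nearest. The 7 keratin-associated protein genes had 0 FPKM in controls 1 and 3, so their likeness there rests on the prior count added to each value. All 8 nearest genes, Padi3 included, passed the filter on mean FPKM through treated skin alone. Krtap24-1, for example, had 0.494 FPKM in control 2.

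Markers of other cell types also differed between libraries, and their part in the differences was not tested. The 4 melanocyte markers summed to 136, 308 and 105 CPM in treated skin, against 9.92, 25.1 and 11.8 CPM in controls, with Tyr at 0 counts in control 1. These 4 are pigment cell genes of the melanosome. The lineage factors Mitf and Sox10, which are not among them, had log2 fold changes of −0.70 ± 0.74 and 0.28 ± 0.24 (SE), neither called by either tool. The 10 proliferation genes summed to 606, 885 and 717 CPM, against 285, 249 and 518 CPM. Skeletal muscle genes, 12 of 12 detected in every library, took 6.43%, 3.96% and 6.32% of the count in treated skin, against 4.02%, 11.9% and 0.0263% in controls, so control 3 held little muscle. With their summed level as a covariate the median log2 fold change of the members was 5.23 and 0 of 9 passed in edgeR. The 5 markers of skin epidermis were detected in all 6 libraries, and their sums ran from 10509 to 20934 CPM in treated skin and from 11745 to 33988 CPM in controls. The interfollicular keratin sum was 1383, 618 and 149 FPKM in treated skin, against 2667, 698 and 2559 FPKM in controls, so that control 2 and osimertinib samples 2 and 3 had the lower epidermal keratin levels. Total counts ran from 54112624 to 60719064 per library, of which the 9 members took 0.0504%, 0.427% and 0.0489% in treated skin, against 0.000772%, 0.0153% and 0.00112% in controls.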

How the data were processed

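Per the labels' protocols, oligo(dT)-purified RNA from skin was made into dUTP-marked, paired-end libraries with unique molecular identifiers. The submitters' processing notes name cutadapt 1.9 and the build GRCm38, and the sources used here give no aligner, counter or annotation, nor say whether strand and identifiers were used. For each gene the authors deposited a raw count and an FPKM value per library, per the file headers. A further 6 columns match no sample and were not used. GENCODE mouse release 21 holds 33211 of the 33308 genes, 99.5% of them with an identical start.

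The test took in the 13498 genes whose FPKM averaged 1 or more across the libraries. All 9 members passed, Krt26, Krt72 and Krt74 through treated skin alone, so their number is no result. Counts were fitted with edgeR 4.0.16 in R 4.3.3 (quasi-likelihood, TMM scaling, no covariate, two-sided), with Benjamini-Hochberg adjustment over all genes tested and a threshold of 0.05. The SE is the log2 fold change over the square root of F. CPM values carry TMM factors, apart from the limits set by a count of 0, and log2 CPM a prior count of 2. Overlap of the groups in single genes was judged on CPM. Alternatives were DESeq2 1.42.0, limma 3.58.1 on log2(FPKM + 1) and log2(FPKM + 0.1), 3 other filters, 3 other scalings, each library left out, the replicate number as a block and muscle content as a covariate. The test was checked on simulated counts.

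The members and the 16 lists were chosen with earlier results of these data known. Of 128 genes listed 127 were matched, and Krt85 is not analysed here. Named were all members, all genes of the regulator, enzyme and fused S100 lists, up to 4 genes with the smallest p of other lists and the 8 nearest genes. Limits set by a count of 0 (3 counts, 0.0494 to 0.0554 CPM without TMM factors) cover counting error only.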

Additional observations from a re-analysis of the deposited data

How the results depend on the processing

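All 152 refitted log2 fold changes of single members, under 17 alternatives, were positive. Krt74 has no value at a mean FPKM of at least 5. In 148 the call was unchanged, in 2 (Krt72 and Krt74) DESeq2 gave no adjusted p, and in 2 DESeq2 called a member that edgeR did not (Krt26 and Tchh, so 2 members against 0). The count of all genes past the threshold was 0 in edgeR, 858 with DESeq2, 17 with limma on log2(FPKM + 1), 2 with limma on log2(FPKM + 0.1), 2 at a mean FPKM of at least 5 and 1 with the muscle covariate. It was 0 with each library left out. The median log2 fold change of the members ran from 2.91 to 9.24 with 1 library left out and was 6.70 with the replicate block. Whether the numbers pair the samples is not known. Same-numbered samples had correlations of 0.222, 0.0294 and −0.115 in their deviations from the group means, and not every sample correlated best with its own number. Yet the samples numbered 2 were the highest of their groups for every member. With the block the SE was smaller for every member except Krt25, for Krt26 0.53 against 1.84. The median ratio of type I to type II keratins, 1.31 in treated skin and 1.18 in controls, was 1.73 and 2.33 without Krt28 and Krt71, and 0.912 in controls with CPM sums. With 1 library of the same group left out it ran from 1.30 to 1.49 in treated skin and from 1.02 to 1.18 in controls. Of the 8 nearest genes 1 was shared with a profile of 5 keratins, 8 without osimertinib 2 and 6 without control 2. The cause of these differences was not tested, except that fewer samples enter when a library is left out. At 0 to 42 counts of each keratin, controls 1 and 3 cannot show small differences.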

Other observations

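Other lists set beside the sheath genes gave these values, with 0 genes of any list called by edgeR. At an unadjusted p under 0.05 in either direction there were 3 of 6 dermal papilla, 7 of 10 proliferation, 5 of 7 melanocyte and 3 of 7 immune genes, against 14.0% of all genes tested, and 0 of the interfollicular, adipocyte, sebocyte and muscle genes. DESeq2 called 3.41% of all genes as higher and 2.95% as lower. Estimates were positive for 6 of 6 dermal papilla genes, of which DESeq2 called 3 and Rspo3 was at 0.08. The median log2 fold change was 1.48 (2.57 without control 2). Of these genes Alpl and the called Vcan and Lef1 passed the filter on mean FPKM through treated skin alone, as did Ccne1 of the proliferation list. The counts of these lists are therefore no test. Wif1, a Wnt inhibitor made by the papilla, had 15.2, 30.6 and 19.1 FPKM in treated skin, against 2.44, 3.80 and 3.23 FPKM in controls. Proliferation genes had positive estimates in 10 of 10 cases (median 1.18), and DESeq2 called 5. The replication licensing factor Mcm2 had 5.29, 8.33 and 6.92 FPKM in treated skin, against 2.66, 1.97 and 3.42 FPKM in controls. In both genes the groups did not overlap, and osimertinib 2 was the highest library, as it was for the sheath genes.

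Of 7 melanocyte genes tested, 6 had positive estimates and DESeq2 called 5 as higher, against 3.41% of all genes tested. Slc24a5, Tyrp1 and Dct, all called, passed the filter on mean FPKM through treated skin alone, so these counts are no test. Slc24a5, a melanosome ion exchanger, had 4.01, 8.23 and 5.00 FPKM in treated skin, against 0.0846, 0.276 and 0.0858 FPKM in controls. Mitf, the melanocyte master regulator, had 1.96, 0.263 and 2.56 FPKM in treated skin, against 2.78, 2.01 and 2.72 FPKM in controls.

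Among immune genes DESeq2 called 2 of 7 as higher and 1 as lower. S100a9 had 173, 57.8 and 499 FPKM in treated skin, against 0.166, 8.66 and 17.2 FPKM in controls. Its log2 fold change was 4.76 ± 1.53 (SE, DESeq2 adjusted p = 0.00269), and that of its partner S100a8 was 4.12 ± 1.49 (SE, DESeq2 adjusted p = 0.0153). In both the groups did not overlap, and osimertinib 2 was the lowest treated library, unlike for the sheath genes. Of the same list, Ly6g had 11 counts in osimertinib 3 and 0 counts in the other libraries. Ptprc had a log2 fold change of −0.10 ± 0.45 (SE) in the fit without a filter, and Itgam one of 0.71 ± 0.67 (SE). Which cells the S100a8 and S100a9 reads came from was not tested. Cd3g, of the T cell receptor complex, had 1.44, 0.570 and 1.16 FPKM in treated skin, against 3.23, 1.28 and 5.07 FPKM in controls, where edgeR gave an adjusted p of 0.300 and DESeq2 one of 0.0494.

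The 4 interfollicular keratins and 10 adipocyte genes tested all had negative estimates and no DESeq2 calls. The interfollicular median was −1.35, with −2.21 without osimertinib 1 and −0.86 without osimertinib 3, and the adipocyte median was −0.81, with −0.24 without control 2 and −1.31 without control 3. The medians of the sebocyte, immune and skeletal muscle lists were −0.02, 0.46 and −0.25, and each changed sign under an alternative, for example 0.24 without control 1 for sebocyte genes, −0.20 without osimertinib 3 for immune genes and 1.44 without control 2 for muscle genes.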
